A study of Mus musculus with 8 samples.

Results

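Secreted antimicrobial and mucosal defence proteins are the soluble arm of the barrier that epithelia hold against microbes. The 7 genes of this kind described here, of 16341 genes counted, were Slpi, Wfdc2, Lcn2, Ltf, Pigr, Saa3 and Lbp. They were picked by name as secreted epithelial defence proteins and matched by symbol to the Ensembl gene of the count table. The pick was made with the difference between the groups already known, so the fold changes of these genes are a description and carry no test. Slpi, Lcn2 and Ltf also belong to the signature of SCA1-positive cells that the study drew from these same libraries, which is not independent evidence of their direction.

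Epithelial cells of the breast, gut and airway release such proteins at their surface. Some block the proteases that leukocytes set free, some keep iron away from bacteria, some carry antibodies across the cell layer, and some bind bacterial lipids or are made in the acute-phase reaction. In the mammary gland, lactoferrin and secretory antibodies are also parts of milk, and cytokines such as IL-6, IL-17 and interferons are known to act on several of these genes in epithelia.

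The libraries came from 4T1, a mouse mammary carcinoma cell line of BALB/c origin, sorted by the surface protein SCA1. The 4T1-Sca1+ group (SCA1-positive cells) and the 4T1-Sca1- group (SCA1-negative cells) had 4 libraries each, and no genotype, drug, time or animal age separated them in the labels. The source label and the study give the parental line as the origin, whereas the labelled protocol has tumor as the material put on magnetic columns and the sort label adds absence of CD45, the leukocyte surface protein. The labels number the replicates 1 to 4 without saying that they were separate sorts, so p-values measure the spread between these libraries, which may be technical.

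Total counts ran from 13561804 to 16968215 per library, and 13777 to 14352 genes were detected in each. Ly6a, which encodes SCA1, averaged 167 ± 20.2 normalized counts (counts divided by a size factor per library) in 4T1-Sca1+ against 1.79 ± 1.73 in 4T1-Sca1- (SD, n = 4), from 709 and 7 counts in all, in the direction of the labels. Epithelial markers summed to normalized counts of 64115 to 70376 in 4T1-Sca1+ and 67764 to 73064 in 4T1-Sca1-, most of it from abundant keratins. All 15 of them were counted, although Krt5 had 3 counts in all. Of the 14 tested, 9 were lower in 4T1-Sca1+ and 2 higher (edgeR, adjusted p under 0.05). Over all genes tested, 30.2% were lower and 31.3% higher. The largest falls were in Cdh1, Ocln, Cldn4 and Ovol1, genes of cell junctions and of an epithelial transcription factor. Their log2 values were -0.69, -0.65, -0.62 and -0.58 (edgeR adjusted p = 6.19e-10, 1.23e-07, 8.74e-08 and 4.58e-05). The 2 higher were the abundant Krt8 and Krt18, by 0.31 and 0.38 (adjusted p = 6.40e-06 and 8.61e-07). Epcam, Krt19 and Cldn7, at -0.03, 0.01 and -0.11, did not pass (adjusted p = 0.552, 0.931 and 0.130). In bulk RNA, fewer cells of a type and less RNA per cell cannot be told apart, here or in any result that follows.

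Of the 7 genes, Slpi, Lcn2, Ltf, Pigr, Saa3 and Lbp were higher in every 4T1-Sca1+ library than in any 4T1-Sca1- library, and Wfdc2 overlapped between the groups. Across the 11717 genes tested, 54.7% did not overlap between the groups and 26.8% did so with the higher level in 4T1-Sca1+. Of the 6 genes that passed the filter on low counts, 5 had a log2 fold change of at least 1, a size met by 5.23% of genes tested, and the same 5 reached at least 2, a size met by 1.41%. An adjusted p under 0.05 in either direction was met by 61.5% of genes tested. The choice of the genes used this contrast, so nothing is read from these counts. The median log2 fold change of those 6 was 2.54, beside 0.01 over all genes tested. Nearest to the 2-fold line were Lcn2 at 2.10 inside it and Wfdc2 at -0.08 outside it.

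**Figure D1:**
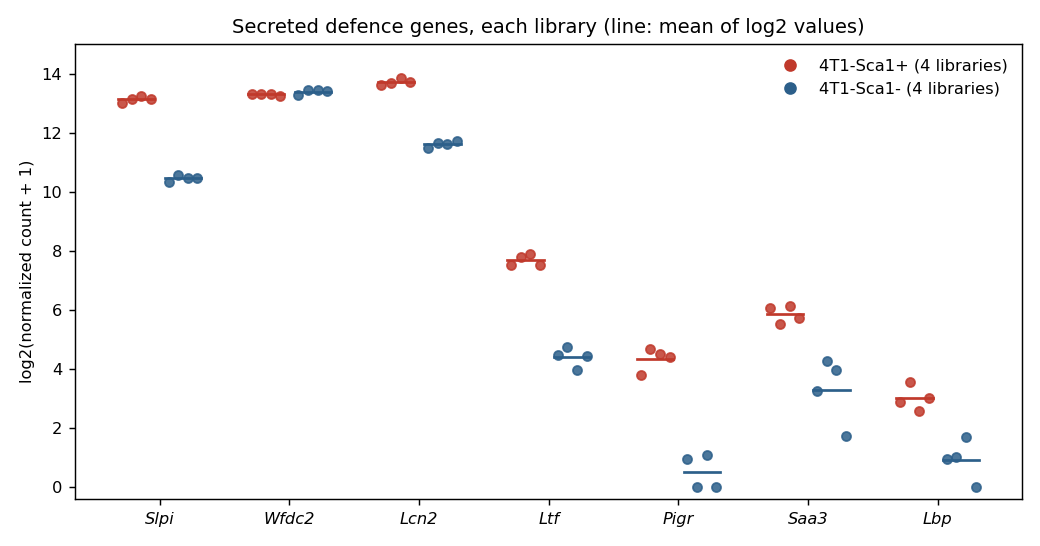
Normalized count of each gene in each library on a log2(value + 1) scale, 4T1-Sca1+ in red and 4T1-Sca1- in blue, with a line at the mean of the log2 values. Wfdc2 overlaps between the groups, while the other 6 genes lie higher in all 4 4T1-Sca1+ libraries, from Lcn2 at 12422 to 14616 down to Lbp at 4.99 to 10.8 normalized counts.

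Promoter sequence is shown for Slpi, Ltf and Saa3, the genes with the most matches to 1 motif, and for Wfdc2, whose level overlapped between the groups. The letters of the motif were TTNNGNAA, a loose form of the site bound by C/EBP factors, read on both strands. Each stretch is reference sequence from RefSeq on GRCm38.p6, runs 5′ to 3′ on the strand of the gene, lies before the RefSeq start in bases that the gene annotation does not place in an exon of the gene, and has its TTNNGNAA matches in capitals. Slpi is read from chr2:164356658-164356757 on the minus strand, Ltf from chr9:111019042-111019141 on the plus strand, Saa3 from chr7:46715827-46715926 on the minus strand and Wfdc2 from chr2:164562475-164562574 on the plus strand. The stretches of Slpi and Wfdc2 lie inside the span that the gene annotation gives these genes, between or beside their exons.
Slpi: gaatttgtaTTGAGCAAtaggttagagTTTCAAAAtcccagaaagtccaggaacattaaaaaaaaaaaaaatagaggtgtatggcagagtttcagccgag
Ltf: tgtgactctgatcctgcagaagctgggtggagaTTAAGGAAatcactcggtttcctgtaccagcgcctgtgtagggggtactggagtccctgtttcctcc
Saa3: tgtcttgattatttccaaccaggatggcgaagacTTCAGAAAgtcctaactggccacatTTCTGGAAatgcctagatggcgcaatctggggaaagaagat
Wfdc2: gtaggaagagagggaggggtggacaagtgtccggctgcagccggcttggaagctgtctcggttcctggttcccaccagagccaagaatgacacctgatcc

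The promoter table of RefSeq, with 250 bases before and 50 after each start, held 6 of the 7 genes, without Lbp. In these whole windows TTNNGNAA was found in 5 of 6, namely Slpi, Wfdc2, Lcn2, Ltf and Saa3, beside 40.7% of all 32851 windows and 34.4% of the 9167 tested genes with a window. Saa3 held 4 matches, Slpi 3, Ltf 2, and Lcn2 and Wfdc2 1 each, so the gene that overlapped between the groups also held the letters. The matches of Wfdc2 and Lcn2 lie outside the bases free of exons. A match is a string of letters, not a known site.

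Other letters were rarer. TTCNNNGAA, the core read by STAT factors, was found in Pigr alone, beside 8.30% of all windows. GAAANNGAA, a loose form of the interferon-stimulated response element, was found in Saa3 alone, beside 8.56% of windows, and it began at base -125 from the start and overlapped the TTNNGNAA match that began at base -129. GGNNTTTCC, a loose form of the site of NF-kappaB, was also found in Saa3 alone, beside 5.82% of windows, at base -187, where it overlapped the TTNNGNAA match that began at base -191, and with a further G before it none of the 6 held it. The AP-1 letters TGANTCA, the antioxidant response letters TGACNNNGC and, on the strand of the gene only, the TATA box letters TATAAA were in none of the 6 windows, beside 7.81%, 12.4% and 8.32% of all windows. Apart from TATAAA, letters were read on both strands. The windows of Slpi, Saa3 and Pigr had a GC content of 43.3%, 46% and 49%, and those of Lcn2, Ltf and Wfdc2 56.3%, 58.7% and 65.3%, beside quartiles of 54.3% and 67.7% over the windows of tested genes. Slpi held 2 CpG, Lcn2 3, Ltf 4, Pigr 4, Saa3 5 and Wfdc2 16, beside a median of 21.

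Slpi encodes secretory leukocyte protease inhibitor, a small WFDC-domain protein that blocks neutrophil elastase and also acts on bacteria. Slpi (ENSMUSG00000017002; GRCm38 chromosome 2, 164354070 to 164389095, minus strand) had normalized counts of 8178, 8984, 9780 and 8917 in the 4T1-Sca1+ libraries and 1291, 1509, 1424 and 1409 in the 4T1-Sca1- libraries. The lowest 4T1-Sca1+ library stood far above the highest 4T1-Sca1- library. Means were 8965 ± 655 and 1408 ± 89.7 (SD, n = 4), a log2 fold change of 2.68 with a standard error of 0.06.

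Wfdc2, which encodes another secreted WFDC-domain protein known in clinics as HE4, was the exception. Wfdc2 (ENSMUSG00000017723; chromosome 2, 164562413 to 164568510, plus strand) had normalized counts of 10249, 10042, 10155 and 9727 in 4T1-Sca1+ and 9847, 11033, 11146 and 10779 in 4T1-Sca1-. The ranges crossed, with 4T1-Sca1- replicate 1 below 3 of the 4T1-Sca1+ libraries. On the log2 scale the difference was -0.08 ± 0.05 (standard error), and it was -0.28 with offsets corrected for transcript GC content.

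Lcn2 encodes lipocalin-2, which binds the siderophores that bacteria use to take up iron. Lcn2 (ENSMUSG00000026822; chromosome 2, 32384633 to 32388252, minus strand) had normalized counts of 12422, 13124, 14616 and 13486 in 4T1-Sca1+ and 2876, 3216, 3156 and 3399 in 4T1-Sca1-. Every 4T1-Sca1+ library was higher than every 4T1-Sca1- library. Means were 13412 ± 916 and 3162 ± 217 (SD, n = 4), with a log2 fold change of 2.10 and a standard error of 0.06.

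Ltf encodes lactoferrin, an iron-binding milk protein that is also stored in neutrophil granules. Ltf (ENSMUSG00000032496; chromosome 9, 111019271 to 111042767, plus strand) had 199, 225, 237 and 209 counts in the 4T1-Sca1+ libraries and 22, 25, 13 and 18 in the 4T1-Sca1- ones. The groups lay well apart. Normalized means were 206 ± 27.6 and 20.4 ± 4.59 (SD, n = 4), with a log2 fold change of 3.33 and a standard error of 0.16.

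Pigr encodes the polymeric immunoglobulin receptor, which carries IgA and IgM across epithelial cells and is cut at the surface to release secretory component. Pigr (ENSMUSG00000026417; chromosome 1, 130826684 to 130852249, plus strand) had 14, 25, 22 and 23 counts in the 4T1-Sca1+ libraries and 1, 0, 1 and 0 in the 4T1-Sca1- libraries. The 4T1-Sca1- libraries were all at or under the floor of 3 counts, so the size of the difference is loosely set. Adjusted for TMM-scaled library totals, the ratio of the 84 counts to the 2 counts was 37.8. Its exact 95% interval of 10.1 to 317 covers counting error only. The fitted log2 fold change of 4.94, with a standard error of 0.55, depends on the prior count and became 3.84 on the log2(normalized + 1) scale.

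Saa3 encodes serum amyloid A3, an acute-phase protein made outside the liver, including in mammary epithelium. Saa3 (ENSMUSG00000040026; chromosome 7, 46711998 to 46715700, minus strand) had 72, 46, 70 and 59 counts in 4T1-Sca1+ and 9, 18, 13 and 2 in 4T1-Sca1-. The 4T1-Sca1- libraries varied among themselves by several-fold, but none reached the lowest 4T1-Sca1+ library. Normalized means were 58.2 ± 11.6 and 11.0 ± 7.07 (SD, n = 4), with a log2 fold change of 2.39 and a standard error of 0.29. Saa1, a close relative that can share reads with Saa3, stood at 1.72 ± 2.22 normalized counts in 4T1-Sca1+ and at 0 in 4T1-Sca1-.

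Lbp encodes lipopolysaccharide-binding protein, an acute-phase protein that hands bacterial lipopolysaccharide to CD14. Lbp (ENSMUSG00000016024; chromosome 2, 158306493 to 158332852, plus strand) had 7, 11, 5 and 8 counts in the 4T1-Sca1+ libraries and 1, 1, 2 and 0 in the 4T1-Sca1- libraries. It did not pass the filter on low counts. The ratio of the 31 counts to the 4 counts, adjusted for TMM-scaled library totals, was 6.98 with an exact 95% interval of 2.47 to 27.2.

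Levels of different genes were compared per length, as CPM (counts scaled to the library total after TMM adjustment in edgeR) per kilobase of exon. On this scale Wfdc2 was at 582 ± 13.0 in 4T1-Sca1+ and 615 ± 33.9 in 4T1-Sca1-, place 25 and place 24 among the genes counted. Slpi stood at 502 ± 35.3 and 78.2 ± 4.90, place 31 and place 583. Lcn2 stood at 338 ± 22.2 and 79.0 ± 5.41, place 58 and place 574. In 4T1-Sca1+ the order of level was Wfdc2, Slpi, Lcn2, Ltf, Saa3, Pigr and Lbp, with no overlap between neighbours in that order. In 4T1-Sca1- the order was Wfdc2, Lcn2, Slpi, Ltf, Saa3, Lbp and Pigr, and the libraries of Slpi and Lcn2 overlapped.

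The other 4 genes stood lower than these 3 in both groups. Ltf stood at 3.94 ± 0.520 and 0.388 ± 0.0864 CPM per kilobase, place 7902 and place 11111, and Saa3 at 1.48 ± 0.291 and 0.275 ± 0.177. Pigr stood at 0.326 ± 0.0830 and 0.00843 ± 0.00979, while Lbp was the lowest of the 7 in 4T1-Sca1+ (all SD, n = 4). In 4T1-Sca1-, the libraries of Ltf and Saa3 overlapped, and so did those of Pigr and Lbp.

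**Figure D2:**
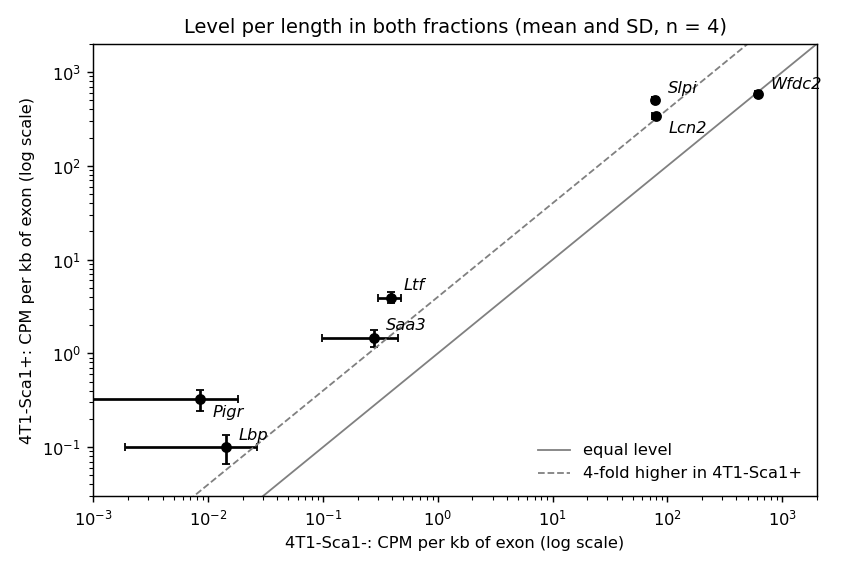
Level per length of each gene in 4T1-Sca1- (horizontal axis) and 4T1-Sca1+ (vertical axis), as CPM per kilobase of exon on log scales, with mean and SD of 4 libraries; bars that reach 0 are cut at the axis. Wfdc2 lies by the line of equal level at 615 and 582, while Slpi, Lcn2, Ltf, Saa3, Pigr and Lbp lie above the dashed 4-fold line.

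The 7 genes together took 0.219% ± 0.00985 of all counts in 4T1-Sca1+ and 0.0988% ± 0.00515 in 4T1-Sca1- (SD, n = 4), a ratio of 2.22. Wfdc2 made up 30.8% of these counts in 4T1-Sca1+ and 69.9% in 4T1-Sca1-. Lcn2 made up 41.0% and 20.7%, and Slpi 27.4% and 9.20%. These shares are of raw counts and take no account of gene length. Without Wfdc2, which had the highest mean normalized count of the 7 over all 8 libraries, the ratio was 5.12.

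Within groups, the deviations of log2 CPM from the group mean gave 15 pairs among the 6 genes that passed the filter. Pearson's r over the 8 libraries ran from -0.33 to 0.83 with a median of 0.16, and was above 0 in 10 pairs. The value of 0.83 was that of Slpi and Lcn2. The points share libraries and depth, and these values are a description.

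The genes whose log2 CPM over the 8 libraries was most like the mean standardised log2 CPM of the 6 genes were H13, Fam131b, Ecm1, Txn2 and Acsf2. Their Pearson's r was 0.998, 0.997, 0.994, 0.994 and 0.993. Of 11711 genes compared, 830 had an r above 0.95. Group means were left in, so this r cannot tell a shared difference between the groups from variation shared within them. The size of change differed widely among these look-alikes, from a log2 fold change of 0.19 for H13, a signal peptide peptidase gene, to 1.42 for Fam131b.

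Of the 7 genes, Slpi, Wfdc2, Lcn2 and Lbp lie on chromosome 2. Between their ends in the gene annotation, Slpi and Wfdc2 are 173 kb apart, with 8 protein-coding genes annotated between them, of which 4 were tested. These 4 went both ways. Sdc4 and Pigt were higher in 4T1-Sca1+ by log2 values of 0.32 and 0.21 (edgeR adjusted p = 2.71e-06 and 0.00149), Dbndd2 was lower by -0.24 (adjusted p = 0.00133), and Sys1, at -0.07, did not pass (adjusted p = 0.350). Pigt went to -0.02 with offsets corrected for GC content. Within 500 kb of Slpi, 18 other genes were tested, of which 10 were higher and 2 lower in 4T1-Sca1+ (edgeR, adjusted p under 0.05) against 31.3% and 30.2% of all genes tested. Their log2 fold changes ran from -0.27 to 0.89, and none came near the 2.68 of Slpi.

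**Figure D3:**
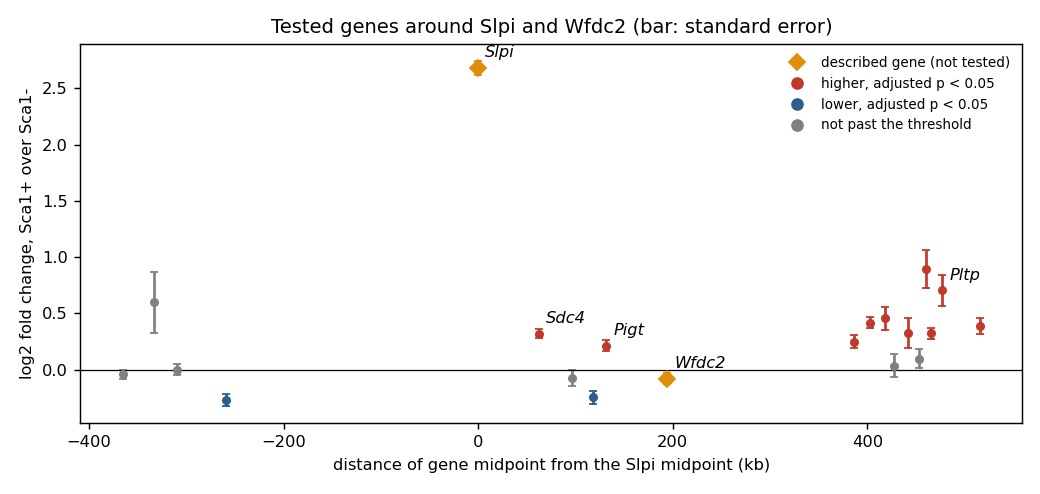
Log2 fold change (4T1-Sca1+ over 4T1-Sca1-, with standard error) of tested genes against the distance of their midpoint from that of Slpi in kb. Slpi stands alone at 2.68, Wfdc2 lies at -0.08, and the other genes lie between -0.27 and 0.89.

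Next to Lcn2, 1110008P14Rik stood at 2130 ± 231 normalized counts in 4T1-Sca1+ and 1024 ± 61.1 in 4T1-Sca1- (SD, n = 4; log2 fold change 1.07, edgeR adjusted p = 3.84e-10). It lies 2695 bases from Lcn2 on the same strand. Saal1, 1318 bases from Saa3, was higher by a log2 value of 0.24 (adjusted p = 0.00688). Lrrc2 and Ccrl2 beside Ltf and AA986860 beside Pigr had log2 fold changes of -0.05, 0.31 and 0.14 and did not pass the test. Mir7678 is annotated inside Slpi on the same strand and was counted as a gene of its own, at 10.1 ± 2.78 and 3.01 ± 1.79 normalized counts, so reads of Slpi could have been split with it.

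Genes of the same families and pathways were taken from 7 lists, which hold 209 genes beside the members, of which 113 were counted and 55 tested. Among these 55, 28 were higher and 15 lower in 4T1-Sca1+, and 12 did not pass the test. The median log2 fold change was 0.30, beside 0.01 over all genes tested, of which 31.3% were higher and 30.2% lower. Called genes at least 2-fold apart were 12 higher and 5 lower of these 55, beside 612 higher and 103 lower of all 11717 genes tested.

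**Figure D4:**
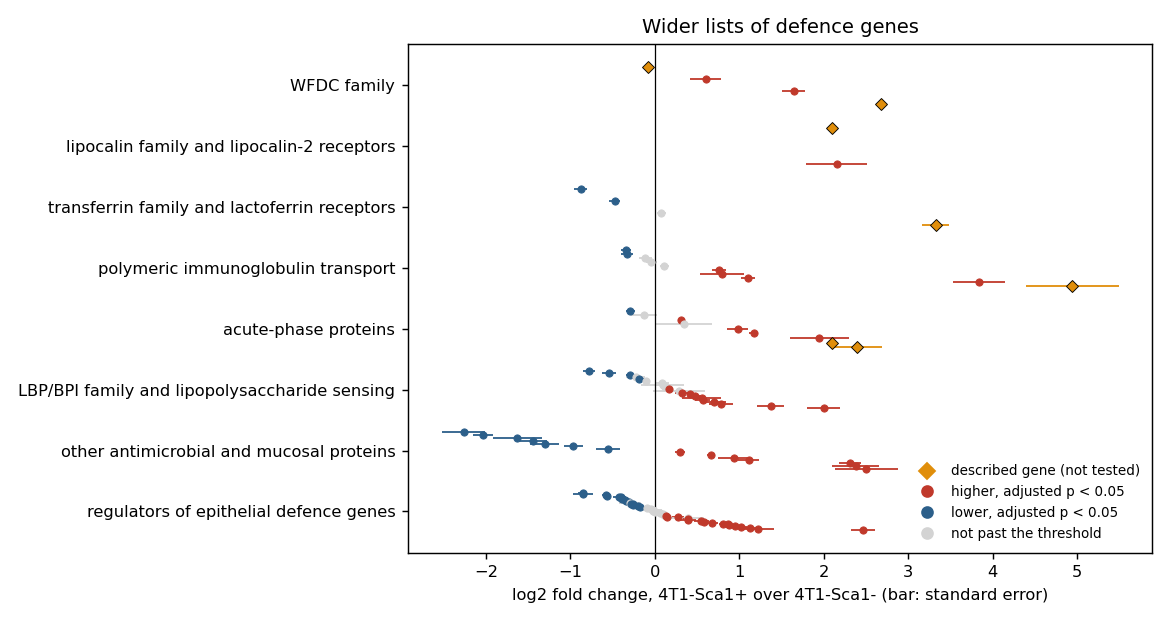
Log2 fold change with standard error of each tested gene in 8 lists, with the described genes as orange diamonds and the others coloured by the edgeR call. The described genes lie at 2.10 to 4.94 apart from Wfdc2 at -0.08, while the other genes of the lists spread to both sides of 0.

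Of the WFDC family, most members were absent or nearly so. Beside Slpi and Wfdc2, 8 of 25 listed genes were counted and 2 tested. Both were higher in 4T1-Sca1+, beside 31.3% of all genes tested. Papln, an extracellular matrix protein with a WFDC-type domain, had a log2 fold change of 1.65 ± 0.14 (standard error; adjusted p = 1.73e-08). Wfikkn1, a secreted protein with several inhibitor domains, had 0.60 ± 0.18 (adjusted p = 0.00891), and did not pass with offsets corrected for GC content, at 0.39.

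Of the transferrin family and the receptors of lactoferrin, 3 were tested beside Ltf, of which 2 were lower and none higher. Over all genes tested, 30.2% were lower and 31.3% higher. Tfrc, the transferrin receptor, was lower in 4T1-Sca1+ at a normalized count of 5555 ± 722 against 10293 ± 888 (SD, n = 4; log2 fold change -0.88, adjusted p = 3.73e-08). Ncl, nucleolin, a nucleolar protein that has been described as a lactoferrin-binding surface protein, was also lower, by -0.47 (adjusted p = 5.61e-06). Lrp1, an endocytic receptor that takes up lactoferrin, had a log2 fold change of 0.08 and did not pass (adjusted p = 0.241). The receptors that take up lipocalin-2 were scarcely counted, with 26 and 10 counts in the 2 groups for Slc22a17 and 1 and 3 for Lrp2. Beside Lcn2, 8 of 24 genes listed with these receptors and the lipocalin family were counted, and only Ptgds was tested. Ptgds stood at 16.6 ± 3.93 normalized counts in 4T1-Sca1+ and 3.75 ± 1.52 in 4T1-Sca1- (SD, n = 4; log2 fold change 2.15, edgeR adjusted p = 6.08e-05). In the other fits, 0 to 2 genes of this list were called higher.

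Of the genes that serve antibody transport, 9 were tested beside Pigr, with 4 higher, 2 lower and 3 that did not pass. Over all genes tested, 31.3% were higher and 30.2% lower. Fcgrt, the neonatal Fc receptor that carries IgG, stood at 58.0 ± 13.9 normalized counts in 4T1-Sca1+ and 3.98 ± 2.28 in 4T1-Sca1- (SD, n = 4; log2 fold change 3.84, adjusted p = 1.07e-08). Rab25, Rab17 and Rab3d, small GTPases of epithelial vesicle traffic, had 1.10, 0.80 and 0.76 (adjusted p = 8.95e-09, 0.0129 and 3.08e-07), and Rab17 did not pass without 4T1-Sca1- replicate 3, at 0.63. Jchain, which joins the antibodies that Pigr carries, had 2 counts and 0 counts.

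Of 27 acute-phase genes listed beside the members, 17 were counted and 7 tested, of which 4 were higher and 1 lower, beside 31.3% and 30.2% of all genes tested. Cp, the copper-carrying ferroxidase ceruloplasmin, had a normalized count of 4194 ± 199 against 1878 ± 116 (SD, n = 4; log2 fold change 1.17, adjusted p = 4.12e-12). Steap4, a metalloreductase, had 0.98 (adjusted p = 3.15e-06), and C3, the central complement component, 0.31 (adjusted p = 4.34e-06). Cd14, which receives lipopolysaccharide from the product of Lbp, was lower by -0.29 (adjusted p = 0.000173).

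Among the genes related to Lbp and to lipopolysaccharide sensing, 10 of 20 tested were higher and 4 lower. Over all genes tested, 31.3% were higher and 30.2% lower. Bpifb4, a relative of Lbp, had a log2 fold change of 2.00 (adjusted p = 9.69e-08), Nod1, a sensor of bacterial cell wall, 1.37 (adjusted p = 6.5e-07), and Casp4, a caspase that binds lipopolysaccharide in the cytosol, 0.78 (adjusted p = 0.000136). Ripk2, the kinase downstream of Nod1, was lower by -0.78 (adjusted p = 2.51e-08). Tlr4, the lipopolysaccharide receptor, was higher by 0.57 (adjusted p = 4.26e-05) and Tlr2, which reads bacterial lipoproteins, lower by -0.54 (adjusted p = 1.87e-05). Ly96, the partner of TLR4, had 0.09 and did not pass (adjusted p = 0.774).

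The list of other antimicrobial and mucosal proteins split evenly. Of 14 tested, 7 were higher and 7 lower, beside 31.3% and 30.2% of all genes tested. In this list, 18 of the 38 counted genes were at or under 3 counts in every library. S100a8, a calcium-binding protein that withholds metal ions from microbes, had a normalized count of 38.5 ± 5.50 against 7.52 ± 3.54 (SD, n = 4; log2 fold change 2.38, adjusted p = 8.33e-07). S100a9, in the same list, had only 3 counts in 4T1-Sca1+ and 1 in 4T1-Sca1-. Chil1, a chitinase-like secreted protein, had 2.31 (adjusted p = 9.27e-11). Cxcl10, an interferon-induced chemokine, was lower by -2.04 (adjusted p = 2.26e-10), and Pglyrp3, a peptidoglycan-binding protein, by -1.44 (adjusted p = 9.17e-07).

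Receptors and transcription factors known to act on such genes were split evenly. Of 43 tested, 16 were higher and 16 lower, beside 31.3% and 30.2% of all genes tested. The median log2 fold change of the 43 was -0.01. The 4 with the largest changes were all higher. Lifr, the receptor of leukemia inhibitory factor, had a normalized count of 121 ± 5.98 against 22.0 ± 3.32 (SD, n = 4; log2 fold change 2.47, adjusted p = 1.22e-10). Il17re, an IL-17C receptor subunit, had 1.22 (adjusted p = 2.77e-05), Cebpb, a C/EBP factor, 1.13 (adjusted p = 1.67e-08), and Osmr, the oncostatin M receptor, 1.02 (adjusted p = 5.05e-09). Across the other fits Cebpb ran from 0.63 to 1.22. Cebpd and Cebpg, also C/EBP factors, had -0.30 and 0.06 and did not pass (edgeR adjusted p = 0.0607 and 0.382). Cebpa was below the filter on low counts, and Cebpe was not counted. Lower in 4T1-Sca1+, and named after their values were seen, were several NF-kappaB subunits, with -0.85 for Nfkb2, -0.85 for Rel and -0.56 for Rela (adjusted p = 6.51e-10, 7.66e-06 and 1.88e-08).

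**Figure D5:**
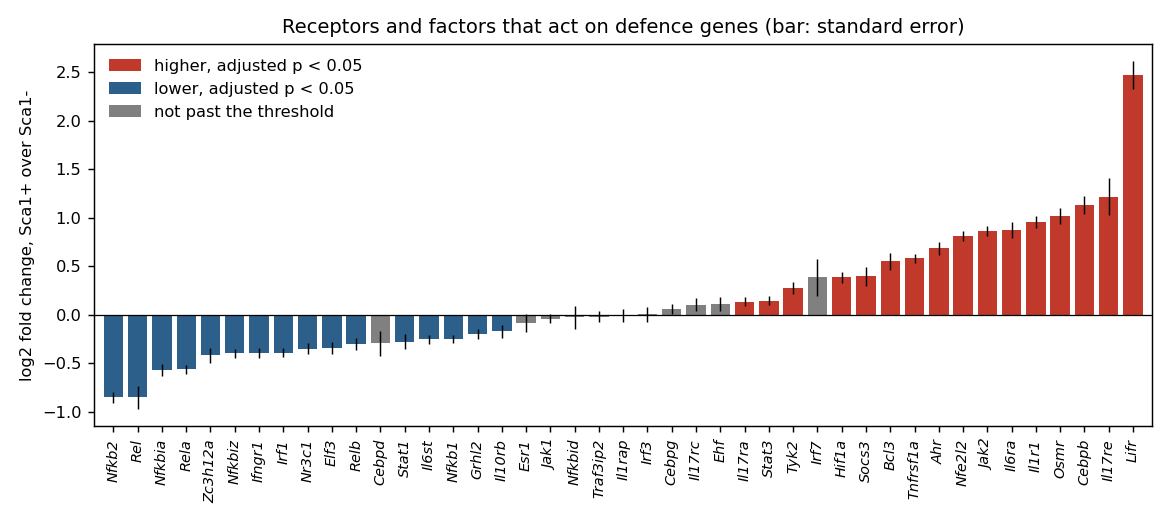
Log2 fold change with standard error of the 43 tested receptors and factors that act on defence genes, sorted by value and coloured by the edgeR call. Bars run from -0.85 for Nfkb2 to 2.47 for Lifr, with 16 in each direction past the threshold.

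Proteins that bind or are acted on by the 7 were considered last. Of 13 tested partners, 4 were higher and 5 lower, beside 31.3% and 30.2% of all genes tested. Grn, progranulin, which Slpi protects from cleavage, was higher by 0.31 (adjusted p = 5.86e-05), and Plscr1, a phospholipid scramblase that binds Slpi, was lower by -0.45 (adjusted p = 1.53e-07). Mmp9, which forms a complex with lipocalin-2, was lower by -0.18 (adjusted p = 0.00436), and Ager, a receptor of serum amyloid A, was higher by 1.51 (adjusted p = 9.08e-05). Scarb1, a lipoprotein receptor that takes up serum amyloid A, was higher by 0.17 (adjusted p = 0.0123) but did not pass without 4T1-Sca1- replicate 1 or replicate 3, at 0.13 and 0.14. Elane, the elastase that Slpi blocks, had 2 counts and 1 count.

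Lcn2, Ltf, Slpi and S100a8 are also genes of neutrophils, so neutrophil markers were read beside them. Without Lcn2 and Ltf, 13 of 21 neutrophil markers were counted, and 10 of these had at most 10 counts in every library. Their summed normalized count was 10545 to 12219 in 4T1-Sca1+ and 10639 to 11983 in 4T1-Sca1-, nearly all of it from Padi4 and Mmp9. Padi4 had a log2 fold change of 0.14 (adjusted p = 0.0283), which did not pass in several other fits, the lowest at 0.000859 with offsets corrected for GC content. Ly6g, Camp, Mmp8, Retnlg, Ctsg, Fcnb, Cebpe and Olfm4 were not among the genes counted, and Mpo had 0 counts and 1 count in the groups. Of the 3 tested, S100a8 and Padi4 were higher and Mmp9 lower, beside 31.3% higher and 30.2% lower of all genes tested. S100a8 had a log2 fold change of 2.38 (edgeR adjusted p = 8.33e-07). Below the filter on low counts, Ptprc, which encodes CD45, had 10 counts in 4T1-Sca1+ and 2 in 4T1-Sca1-, and Cxcr2 had 12 and 3. Itgam had 10 and 11.

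Macrophage and monocyte markers were summed without Saa3 and Cd14. The sum was 487 to 509 in 4T1-Sca1+ and 291 to 335 in 4T1-Sca1-, with 13 of 19 counted. Of those 13, 8 were at no more than 10 counts in any library. Cd14 alone stood above this sum and went the other way (log2 fold change -0.29, edgeR adjusted p = 0.000173). Its normalized counts were 703 ± 32.2 in 4T1-Sca1+ and 865 ± 34.9 in 4T1-Sca1- (SD, n = 4). Of the 5 tested in the sum, 4 were higher and 1 lower, beside 31.3% and 30.2% of all genes tested. Csf1r and Cd74 were higher by log2 values of 1.18 and 0.94, and Mrc1 lower by -1.44 (edgeR, adjusted p = 8.38e-05, 1.03e-05 and 0.000215). Adgre1, C1qa, C1qb, C1qc, Tyrobp and Laptm5 were not among the genes counted. Lymphocyte and plasma cell markers summed to 8.23 to 15.8 and 3.82 to 9.13, with all 8 counted markers at no more than 10 counts. Fibroblast and endothelial markers summed to 672 to 706 and 439 to 518, with 13 of 16 counted and 6 of those at no more than 10 counts in any library. Of the 4 tested, 2 were higher, 1 lower and 1 did not pass, beside 31.3% higher and 30.2% lower of all genes tested. Col1a1 and Pdgfra were higher by 0.75 and 0.63 (edgeR adjusted p = 0.00252 and 2.28e-07). Postn, at 0.05, did not pass (adjusted p = 0.868), and Tie1, an endothelial receptor, was lower by -0.60 (adjusted p = 0.0121). Without 4T1-Sca1- replicate 4 Tie1 did not pass, at -0.49. Below the filter on low counts, Dcn had 49 counts in 4T1-Sca1+ and 4 in 4T1-Sca1-, Pdgfrb 27 and 1, and Pecam1 21 and 4. Esam, Fap and Cdh5 went the other way, at 24 and 32, 4 and 11, and 3 and 7. The part of these cells in the levels of the 7 genes was not tested.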

How the data were processed

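RNA of 4 4T1-Sca1+ and 4 4T1-Sca1- libraries was sequenced after a TruSeq preparation on a NextSeq instrument, per the labels. From the authors came raw counts for each Ensembl gene and, in another deposited table, normalized signal. Each signal value was the count over a DESeq2 size factor of its library. The submitters' processing notes name cutadapt 1.16, STAR 2.5.3a and the builds GRCm38 and mm10. The counting tool, its annotation and its use of strand are not given in the sources used here. The tables held 0 columns of other samples.

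The deposited counts went into edgeR 4.0.16 (R 4.3.3), with 11717 of 16341 genes passing filterByExpr, TMM scaling, a two-sided quasi-likelihood test of the groups and Benjamini-Hochberg adjustment over all genes tested. Calls were made at an adjusted p under 0.05. Standard errors were the absolute log2 fold change over the root of F. GENCODE M21 on GRCm38, which held 16202 of the genes counted, gave positions, exon lengths and GC content, and RefSeq gave promoter windows on GRCm38.p6. At most 3 counts in a library was taken as the floor. Reads were amplified and carry no molecular identifiers, so intervals and floors cover counting error only.

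The 7 genes and all gene lists were chosen with earlier results of these data known. Genes named beside the 7 were, for each list, up to 4 called genes with the largest absolute log2 fold change at a mean normalized count of at least 20, any gene of the list of partners, the nearest counted genes, the 5 most alike genes and Ly6a. The letters of the interferon and NF-kappaB motifs were shortened after a first search. Other named genes (Sdc4, Dbndd2, Sys1, Postn, Krt5, Krt8, Krt18, Krt19, Epcam, Cldn7, Ptgds, Ly96, Jchain, Mpo, Ptprc, Cxcr2, Itgam, Dcn, Pdgfrb, Pecam1, Esam, Fap, Cdh5, S100a9, Cebpa, Cebpd, Cebpg, the NF-kappaB subunits and markers not counted) were chosen after their values were seen. Alternatives were other scalings, filters and thresholds, DESeq2 1.42.0, limma 3.58.1, GC-corrected offsets, a replicate block, and leaving out each library in turn.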

Additional observations from a re-analysis of the deposited data

Results flagged for a closer look

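In groups of 4 libraries, a lone library far from the other 3 was looked for in 34 groups of values, of which chance alone would mark 1.7, and 2 were marked. The summed CPM of the 7 genes, here scaled to library totals alone, was 911 in 4T1-Sca1- replicate 1. It was 1007 to 1023 in the other 3 libraries of that group. The mean log2 CPM of the transferrin family and lactoferrin receptors was 9.71 in 4T1-Sca1+ replicate 3, against 9.87 to 9.90 in the other 3.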

How the results depend on the processing

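Counting only changes of at least 1 on the log2 scale left 612 genes higher and 103 lower of all genes tested, and 12 higher and 5 lower of the defence lists. With at least 10 counts in every library, 3 of the described genes were at least 2-fold higher, because Pigr and Saa3 were then not tested. The ratio of summed CPM, scaled to library totals alone, was 5.12 without Wfdc2, the gene with the highest mean normalized count over all 8 libraries. Leaving out each library in turn gave a median log2 fold change of 2.41 to 2.74 and a ratio of summed CPM of 2.17 to 2.26. It left 3397 to 3642 genes higher and 3286 to 3548 lower. Of 49 single genes with a test, 41 kept their direction and call in all fits run, and the exceptions were Wfikkn1, Rab17, Padi4, Tie1, Pigt, Ptges2, Snhg17 and Scarb1. Only Pigt changed sign, at -0.0171 with GC-corrected offsets, and the cause was not tested. The same offsets gave 2.55 for Slpi, 1.96 for Lcn2 and -0.28 for Wfdc2. The labels number the replicates alike in both groups. Deviations of same-numbered libraries correlated at 0.0957, -0.15, -0.0339 and -0.0011, so little shared variation was seen. These values cannot tell whether same-numbered libraries came from the same sort. With a replicate block, 3605 genes were higher and 3452 lower. The depth left Pigr and Lbp at or under 3 counts in every 4T1-Sca1- library, so the sizes of their differences are the least certain.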
